A study of Mus musculus with 4 samples.

Results

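Chains of Myc peaks are stretches of the mouse genome in which several binding sites of c-Myc were found close together. They were chosen by position in the deposited c-Myc peak list: neighbouring autosomal peaks were joined where the gap from the end of one to the start of the next was 12.5 kb or less, and runs of 3 or more peaks were kept. This gave 176 chains with 593 Myc peaks, out of 5417 Myc peaks on the 19 autosomes. A further 3744 autosomal Myc peaks stood alone and 1080 stood in 540 pairs. Because the positions of the Myc peaks made the chains, their number, spacing and length are a description. The Ptf1a peak list had no part in the choice and was used to describe the chains.

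Both factors were profiled by chromatin immunoprecipitation and sequencing in pancreas of 8-week-old Ela1-myc mice, whose c-Myc transgene is driven by the promoter of the acinar gene elastase 1. The c-Myc library was made from a pool of 3 mice with the N262 antibody and the Ptf1a library from 1 other mouse. All samples came from mice with the transgene, and transgenic and endogenous c-Myc cannot be told apart in the peaks. The tissue was whole pancreas, so the cell type in which a site was bound is not known, and a peak list offers no marker by which to check the label. Each factor had 1 library and no replicate, and the depth is unknown. The 95% Wilson intervals below cover counting error only, and peaks of 1 chain share a region, which makes such intervals too narrow. No difference between chains and other peaks was tested.

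c-Myc is a transcription factor of the basic helix-loop-helix leucine zipper family that binds E-box DNA together with its partner Max and drives growth, ribosome production and proliferation. It is found mostly at active promoters and, at high protein levels, also at enhancers. Ptf1a, a basic helix-loop-helix factor, works with an E protein and Rbpj or Rbpjl in the PTF1 complex, which switches on digestive enzyme genes of acinar cells. Neighbouring sites joined over such gaps are a common way to mark out enhancer clusters, which often lie at genes of cell identity. The positions of genes on mm9, the build of the peaks, were not used here, so chains are named by position and no gene is assigned to them.

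Most chains were short. Of the 176, 127 held 3 Myc peaks, 38 held 4, 8 held 5, 2 held 6 and 1 held 8. The stretch from the first to the last Myc peak had a median length of 12.8 kb (quartiles 7.71 and 17.6 kb) and ranged from 2.456 to 35.477 kb. Myc peaks covered a median of 22.3% of that length. The 417 gaps inside chains had a median length of 3204 bp, and their quartiles were 887 and 7583 bp. By contrast, the median gap between all neighbouring autosomal Myc peaks was 98.2 kb, and 957 of 5398 such gaps were within the limit.

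**Figure D1:**
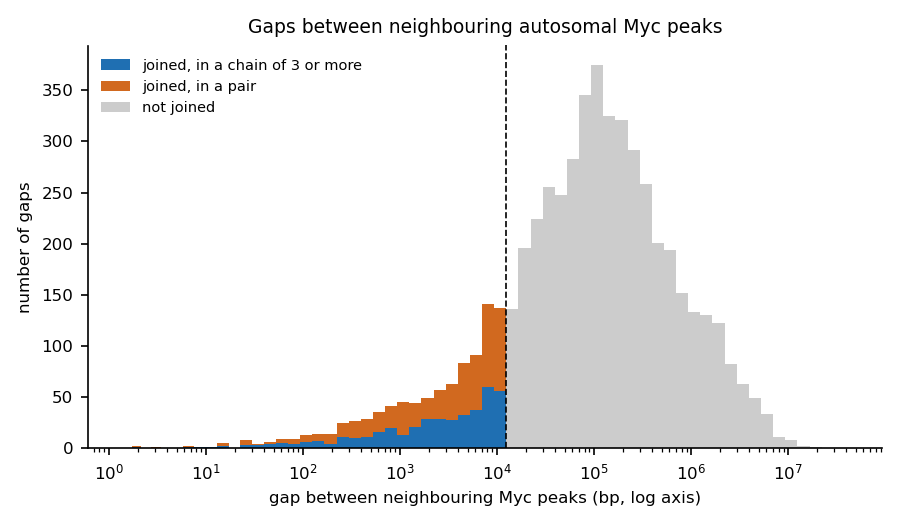
Gaps between the 5398 pairs of neighbouring autosomal Myc peaks, in bp on a log axis, counted in bins of equal width on that axis. Colours show gaps joined in a chain of 3 or more (417), gaps joined in a pair (540) and gaps not joined, and the dashed line is the 12.5 kb limit. No trough in the counts lies at the limit.

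The limit did not fall in a natural break. The 3 widest gaps inside it were 12377, 12457 and 12498 bp, and the 3 narrowest outside it were 12501, 12504 and 12525 bp. Of the gaps just inside, the one of 12457 bp, on chromosome 4 between 117920247 and 117932705, belonged to a chain, and the other two joined pairs. Each of the 3 just outside lay between peaks that stood alone, so joining them would have made pairs and no chain.

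Very short gaps were common in the chains. Of the 417 gaps, 112 (26.9%) were under 1 kb, 145 were from 1 kb to under 5 kb and 160 were 5 kb or more. At least 1 gap under 1 kb occurred in 91 of the 176 chains, and in 9 chains every gap was under 1 kb. The most compact chain lay on chromosome 13 at 60581135 to 60583590, where Myc peaks with scores of 59.31, 274.85 and 52.84 were separated by 46 and 115 bp. Peaks covered 93.4% of these 2.456 kb, and none overlapped a Ptf1a peak. Whether peaks this close together are separate binding sites or 1 site divided by the peak caller was not tested. At the other extreme, the chain of 3 on chromosome 9 at 43047707 to 43072612 had gaps of 11130 and 10153 bp, and its peaks scored 108.87, 68.80 and 185.34.

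Chain peaks had scores and widths close to those of other Myc peaks. The score is the peak caller's value, whose scale is not stated and which does not go below 50.0. Its median was 77.1 in chains (quartiles 60.4 and 113) and 75.2 over all autosomal Myc peaks (59.5 and 106). Scores were at least 100 for 193 of 593 chain peaks, or 32.5%, and for 28.7% of all autosomal Myc peaks. Median widths were 843 bp in chains and 834 bp over all. Within a chain the scores were uneven. The median score was 134 for the highest peak of a chain, 80.6 for the next and 62.0 for the third. The difference between the highest and the lowest peak had a median of 73.1 and ranged from 6.60 to 425. In the 127 chains of 3, the highest peak was the first in 41, the middle one in 48 and the last in 38.

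The 12 chains with the most Myc peaks showed how unevenly Ptf1a was spread over them. Longest of all was the chain of 8 on chromosome 11 at 57767224 to 57802700. In order of position its Myc peaks scored 132.03, 53.0, 51.98, 74.75, 88.97, 132.16, 69.87 and 88.59, and each of the 8 overlapped a Ptf1a peak. The highest Ptf1a partners had scores of 1581.69, 236.52, 85.07, 1318.65, 153.15, 93.0, 213.57 and 2361.78 in the same order. High Ptf1a scores thus stood at both ends of the chain and at the fourth peak, while the sixth peak, level with the first in Myc score, had a low Ptf1a partner.

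Of the 2 chains of 6, one had little Ptf1a on its peaks. On chromosome 5 at 113564881 to 113584653, the Myc peaks scored 84.36, 59.52, 63.72, 85.53, 53.57 and 205.1, and the third alone overlapped a Ptf1a peak (score 92.06). The fourth missed this Ptf1a peak by a narrow margin of 50 bp. Yet 4 further Ptf1a peaks lay between the Myc peaks of this stretch, 690 to 1869 bp from the nearest Myc peak, and the highest of them scored 208.85. Most Ptf1a peaks of this stretch thus stood beside the Myc peaks. On chromosome 11 at 78349536 to 78371398 the scores were 59.42, 72.16, 75.41, 75.98, 166.03 and 86.27, and 4 of the 6 overlapped a Ptf1a peak. The Myc peaks of 75.98 and 166.03 carried high Ptf1a scores, 2369.58 and 1479.55, whereas those of 72.16 and 86.27 carried 62.56 and 55.58.

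Of the 8 chains of 5, 3 had a Ptf1a peak on every Myc peak. The shortest of these ran on chromosome 4 from 115511316 to 115523798, with Myc scores of 69.88, 70.55, 122.2, 122.84 and 208.35 and Ptf1a partners of 69.69, 105.16, 826.71, 235.21 and 1602.73. Both scores were highest at the last peak. With 8 Ptf1a peaks in 12.483 kb, or 6.41 per 10 kb, it was the chain of 5 or more with the densest Ptf1a peaks. On chromosome 8, from 114208990 to 114232618, Myc scores of 50.77, 81.29, 64.35, 121.47 and 58.57 stood over Ptf1a scores of 117.72, 761.56, 264.05, 3100 and 314.21. Here too the highest Myc peak and the highest Ptf1a peak were the same site. The value 3100 was also the top Ptf1a score in chains on chromosomes 2, 6 and 14. Why it recurs is not known, so it may not measure the height of a site. The chain on chromosome 3 at 83825901 to 83845046 differed: its highest Ptf1a partner (1171.31) lay on its lowest Myc peak (53.62), and its highest Myc peak (103.42) had a partner of 89.78.

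In 3 more chains of 5, 4 peaks overlapped a Ptf1a peak. One spanned 30.309 kb on chromosome 15, from 25550388 to 25580696, with Myc scores of 73.2, 186.41, 75.54, 54.28 and 161.57, of which the first lay off Ptf1a. On chromosome 5 at 66459704 to 66475240 the scores were 51.18, 58.55, 122.73, 52.54 and 174.31, and the third lay off Ptf1a. On chromosome 18 at 34549290 to 34570814 they were 106.3, 52.53, 132.87, 70.92 and 92.56, and the second did. The peak without Ptf1a was thus the lowest Myc peak of its chain in 1 of these 3 chains. Its distance to the nearest Ptf1a peak was 1081, 1139 and 2544 bp.

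The other two chains of 5 had less. On chromosome 1 at 169184034 to 169194209, within 10.176 kb, the 3 middle peaks (55.55, 50.32 and 105.45) overlapped Ptf1a and both end peaks (52.92 and 51.15) did not. On chromosome 7 at 52959274 to 52974167 the scores were 58.11, 69.98, 80.52, 65.85 and 104.21, and the fourth overlapped the single Ptf1a peak of the stretch, which scored 72.87. This was the chain of 5 or more with the fewest Ptf1a peaks, 0.671 per 10 kb. The last of the 12, a chain of 4 on chromosome 18 at 39521640 to 39540532, had the highest summed Myc score among the chains of 4. Its peaks scored 369, 195.23, 75.53 and 139.04, and every one overlapped a Ptf1a peak.

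**Figure D2:**
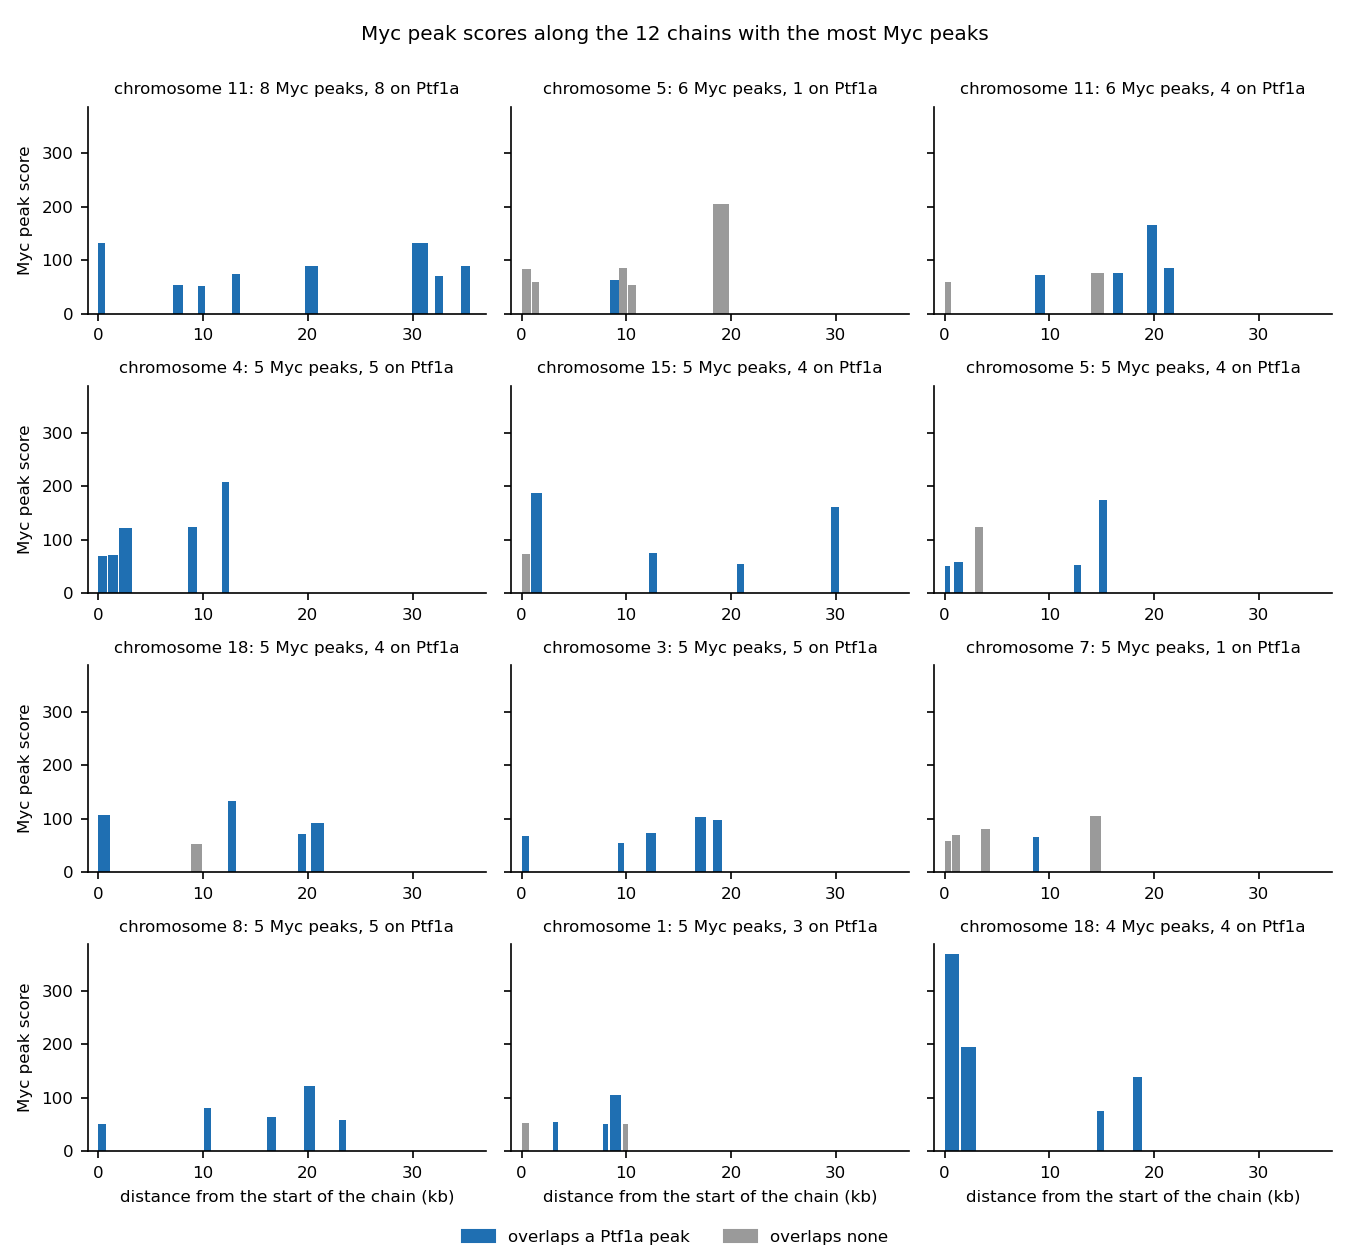
Myc peaks of the 12 chains with the most Myc peaks, 1 panel per chain. The horizontal axis is the distance from the start of the chain in kb, bar width is the width of the peak, bar height is its Myc score, and blue bars overlap a Ptf1a peak while grey bars do not. The chain of 8 on chromosome 11 is blue throughout, whereas the chain of 6 on chromosome 5 and the chain of 5 on chromosome 7 have 1 blue bar each.

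To ask how often Myc sites in chains were also Ptf1a sites, a chain peak was counted as shared when 1 bp or more of it overlapped a Ptf1a peak. Of the 593 chain peaks, 295 were shared, a share of 49.7% (95% Wilson interval 45.7 to 53.8%), against 41.6% of all autosomal Myc peaks and 40.6% (39.2 to 42.0%) of those outside chains. On single chromosomes the share of chain peaks was above that of the other Myc peaks on 15 of 19. It was lowest on chromosome 17, where 7 of 27 chain peaks were shared, and highest on chromosome 18, where 12 of 15 were. In the bands of Myc score below 300, the share was again higher for chain peaks. Below 100, 47.0% of 400 chain peaks (42.2 to 51.9%) and 37.9% of 3461 others (36.2 to 39.5%) were shared. From 100 to under 200 the shares were 54.9% of 153 (47.0 to 62.6%) and 47.7% of 1129 (44.8 to 50.7%), and from 200 to under 300 they were 60.7% of 28 (42.4 to 76.4%) and 46.6% of 174 (39.3 to 54.0%). At 300 or more the shares were close, with 6 of 12 chain peaks and 29 of 60 others. The part of Myc score in the difference was not tested. The intervals of chain and other peaks overlapped in each band other than the lowest.

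Longer chains had a larger share of their peaks on Ptf1a. The share was 40.1% for Myc peaks standing alone (38.6 to 41.7%), 42.2% for pairs (39.3 to 45.2%) and 44.1% for chains of 3 (39.2 to 49.1%), and these 3 intervals overlapped. It was 54.6% for the 152 peaks of chains of 4 (46.7 to 62.3%) and 73.3% for the 60 peaks of chains of 5 or more (61.0 to 82.9%). The last value comes from 11 chains, of which 9 had 3 or more shared peaks and the other two had 1. It was 69.2% (55.7 to 80.1%) without the chain of 8. Counting Ptf1a peaks with a score of 100 or more, the order was the same, with 27.2% for peaks alone, 32.5% in chains of 3, 46.1% in chains of 4 and 53.3% in chains of 5 or more. With a joining gap of 5 kb the order of the 2 largest classes turned: 24 of 40 peaks in chains of 4 and 8 of 15 in chains of 5 or more were shared. With Myc peaks of a score of 60 or more, chains of 3 had 42.1%, below pairs with 48.0%. With Myc peaks under 1 kb apart merged first, a setting added after the data were seen, the share was 54.3% in chains of 3, 59.7% in chains of 4 and 12 of 12 in the 2 chains of 5 or more.

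**Figure D3:**
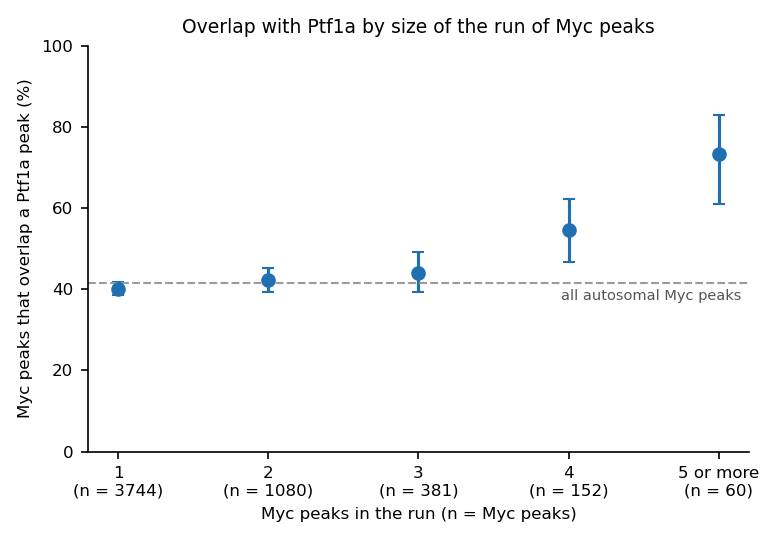
Share of Myc peaks that overlap a Ptf1a peak, in %, by the number of Myc peaks in the run they belong to (1 for peaks standing alone). Points are shares, bars are 95% Wilson intervals and the dashed line is the share of all autosomal Myc peaks (41.6%). The first 3 classes lie between 40.1 and 44.1% and the class of 5 or more lies at 73.3%.

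Counted by chain, 135 of 176 chains (76.7%, 69.9 to 82.3%) had at least 1 peak on Ptf1a, and 73.2% (64.9 to 80.2%) of chains of 3 did. A chain has 3 or more peaks, any of which could be shared. Its share therefore cannot be set directly beside the 41.6% of all autosomal Myc peaks that overlapped a Ptf1a peak. Whether the share of chains differs from what 41.6% per peak would give was not tested. In 26 chains every Myc peak was shared, in 109 some were, and in 41 none was. Among the 127 chains of 3, 34 had no shared peak, 34 had 1, 43 had 2 and 16 had 3. Among the 38 chains of 4, 7 had none and 6 had all 4. All 11 chains of 5 or more had at least 1 shared peak, although a longer chain has more peaks that could be shared.

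**Figure D4:**
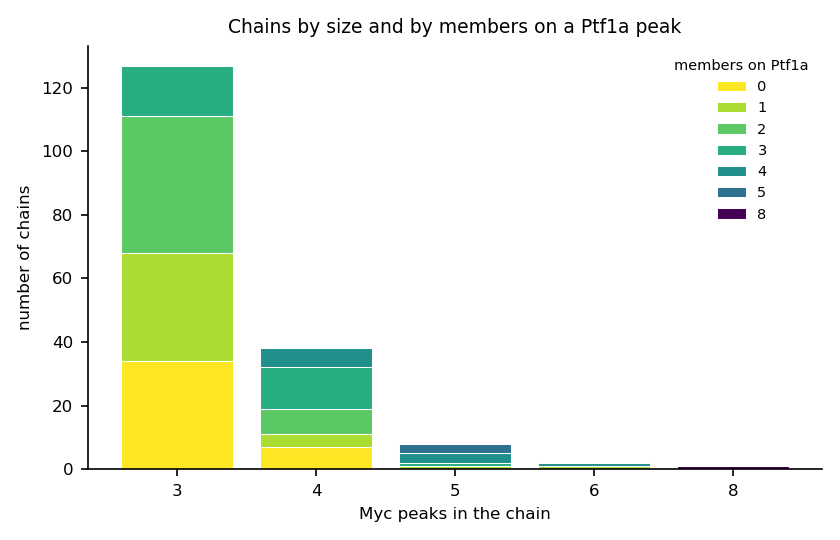
Number of chains by the number of Myc peaks they hold (horizontal axis), with colours for how many of those peaks overlap a Ptf1a peak. Chains of 3 fill all 4 classes from 0 to 3 shared peaks, and the chains of 5, 6 and 8 have no class without a shared peak.

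Neighbours within a chain tended to be alike. Of the 417 neighbouring pairs of peaks, 130 were both on Ptf1a, 128 were both off it and 159 were mixed, so 61.9% (57.1 to 66.4%) were alike. Following the coordinates, the next peak was on Ptf1a in 61.6% of cases (54.9 to 67.9%) after a peak on Ptf1a and in 37.9% (31.5 to 44.7%) after one off it. Myc pairs outside chains had the same share, with 334 of 540 alike, also 61.9% (57.7 to 65.9%). Likeness was 71.4% (62.5 to 79.0%) across gaps under 1 kb, 58.6% (50.5 to 66.3%) from 1 to 5 kb and 58.1% (50.4 to 65.5%) from 5 kb to the limit. Among the 310 Ptf1a peaks found on chain peaks, 5 touched 2 chain peaks, which makes both neighbours alike by itself. All 5 did so across gaps under 1 kb, where 33 neighbouring pairs were both on Ptf1a.

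Taken over all chains, the highest Myc peaks were more often on Ptf1a than the lowest. Of the 176 highest peaks, 97 (55.1%, 47.7 to 62.3%) overlapped a Ptf1a peak, and of the 176 lowest, 72 (40.9%, 33.9 to 48.3%). The intervals of these shares overlap slightly. Both sets come from the same 176 chains, and the comparison was not paired by chain. Outside chains the share was 37.9% for scores under 100 and 47.7%, 46.6% and 48.3% in the higher bands. Median widths were 987 bp for the highest and 742 bp for the lowest chain peaks. The part of width in the difference between highest and lowest peaks was not tested. End and inner peaks of chains differed little, with 48.6% of 352 and 51.5% of 241 on Ptf1a. Exactly 2 peaks were shared in 51 chains. The higher Myc peak had the higher Ptf1a partner in 34 of these and the lower partner in 15 (69.4% of 49, 55.5 to 80.5%). In the others both peaks overlapped the same Ptf1a peak, so their partners could not be ranked. Among the 95 chains with 2 or more shared peaks, 91 had no tie for the highest partner. In 55 of these the highest shared Myc peak also had the highest partner (60.4%, 50.2 to 69.9%).

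Chain peaks without Ptf1a usually had it nearby. Of the 298 chain peaks off Ptf1a, 199 (66.8%, 61.2 to 71.9%) lay within 10 kb of a Ptf1a peak. The same was true of 37.8% of all autosomal Myc peaks off Ptf1a. Their median distance to the nearest Ptf1a peak was 5.02 kb, compared with 18.02 kb over all autosomal Myc peaks off Ptf1a. In chains of 5 or more each of the 16 such peaks had one within 10 kb, the farthest at 8.007 kb. Pairs outside chains lay between, with 55.9% of 624 within 10 kb. A Ptf1a peak on one member lies within reach of its neighbours by the way chains are joined, so this nearness can follow from the rule. The 298 peaks were not split by whether another peak of their chain was shared, so how much follows was not tested. For the 41 chains without a shared peak, the nearest Ptf1a peak lay a median of 11.4 kb from the chain.

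Seen from the Ptf1a list, the chain stretches held 426 Ptf1a peaks, 310 of them on a Myc peak and 116 between Myc peaks. The 310 are 72.8% of the Ptf1a peaks in the stretches, while 13.5% of all autosomal Ptf1a peaks overlapped a Myc peak. The stretches begin and end with a Myc peak and are densely covered by them, so a high share is built into this count. Ptf1a peaks on chain peaks had a median score of 220.4 (quartiles 99.4 and 633), those between chain peaks 129 (75.9 and 259.6), and Ptf1a peaks on any autosomal Myc peak 177. Scores of 1000 or more were held by 50 of the 310 (16.1%) and by 11.0% of the 2347 Ptf1a peaks on any autosomal Myc peak. They were held by 5 of the 116 (4.31%) and by 3.94% of all autosomal Ptf1a peaks. The 116 Ptf1a peaks between chain peaks lay a median of 1293 bp from the nearest Myc peak (quartiles 633 and 2361 bp), and 46 of them lay under 1 kb away. The 12.5 kb limit on gaps keeps these distances short by construction. Midpoints of overlapping pairs lay a median of 121.5 bp apart in chains and 108 bp outside them.

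Many Myc chains lay where Ptf1a peaks were chained as well. Joined by the same rule, 5931 of 17423 autosomal Ptf1a peaks (34.0%) stood in chains of 3 or more. Such a Ptf1a chain reached into 108 of the 176 Myc stretches (61.4%, 54.0 to 68.2%), against 33.3% of the 540 Myc pairs (29.5 to 37.4%), 12.2% of the Myc peaks standing alone (11.2 to 13.3%) and 16.7% of these 4460 stretches and single peaks together. A Ptf1a chain of 5 or more reached into 64 of the 176 (36.4%, 29.6 to 43.7%) and into 6.17% of all 4460. A longer stretch has more room to meet a Ptf1a chain, and median lengths were 12.8 kb for chains, 5.48 kb for pairs and 0.831 kb for single peaks, so the part of length in these shares was not tested. By size the count was 70 of 127 for Myc chains of 3, 28 of 38 for chains of 4 and 10 of 11 for chains of 5 or more. It was 2 of 41 for chains with no shared peak, 80 of 109 for those with some and 26 of 26 for those with all. The count for chains with all peaks shared follows from the definition, since a Ptf1a peak on every Myc peak of a chain makes a Ptf1a chain of its own where the gaps allow it.

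Other chains held no Ptf1a peak. In 34 chains, with 106 Myc peaks, no Ptf1a peak lay anywhere in the stretch, and in 7 more Ptf1a peaks lay between the Myc peaks only. The 34 stretches were short, with a median length of 8.13 kb against 14.5 kb both for chains with some and for chains with all peaks shared. Myc peaks covered a median of 40.5% of their length. A short stretch has less room for a Ptf1a peak, so length and absence of Ptf1a cannot be told apart here. The nearest Ptf1a peak to these 34 chains was a median of 16.4 kb away (quartiles 5.55 and 28.4 kb) and at most 158.52 kb. It lay within 10 kb of 13 of the 34, and in 3 of these it was 412, 613 and 865 bp away, just outside the stretch.

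**Figure D5:**
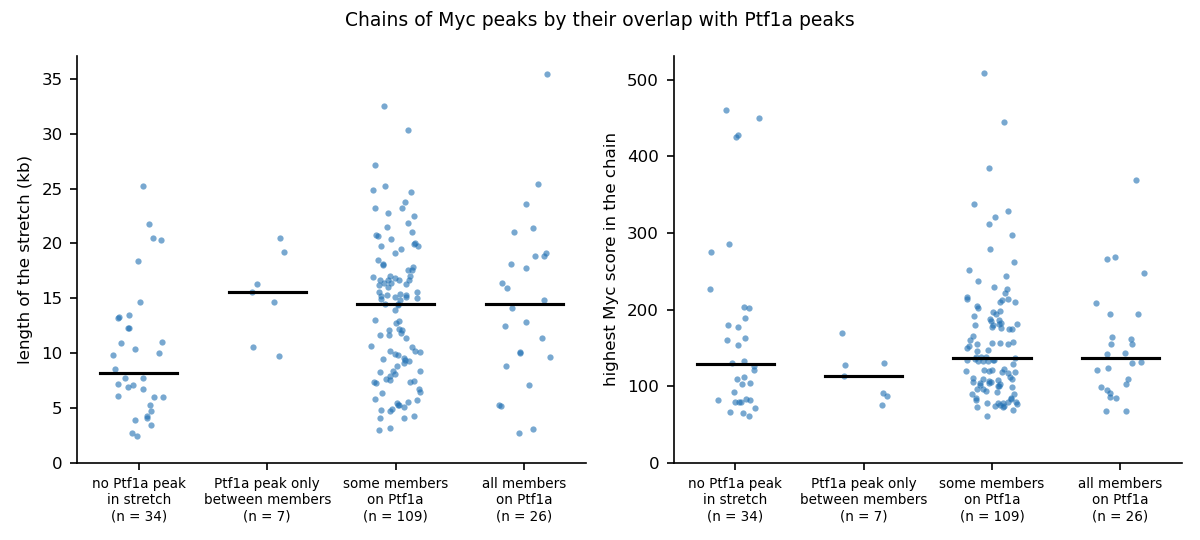
Length of the stretch in kb (left) and highest Myc score of the chain (right) for the 176 chains, split by their overlap with Ptf1a peaks into 34 with no Ptf1a peak in the stretch, 7 with Ptf1a peaks between Myc peaks only, 109 with some and 26 with all Myc peaks on Ptf1a. Points are chains, spread sideways for clarity, and lines are medians. Chains without Ptf1a are shorter (median 8.13 kb), while the highest Myc scores cover much the same range in the groups with and without Ptf1a.

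Myc scores of the 34 chains without Ptf1a covered much the same range, with somewhat lower middle values. Their highest peak had a median score of 129 (quartiles 82.7 and 199). It was 137 both for chains with some (102 and 192) and for chains with all peaks shared (100 and 186). Over all their peaks the median was 70.6, against 77.9 and 76.2. A peak of 200 or more was found in 9 of the 34 and in 38 of all 176 chains. Among the 12 chains with a Myc peak of 300 or more, 4 had no shared peak, 7 had some and 1 had all peaks shared. Over all 176 chains these counts were 41, 109 and 26. Of the 12 chain peaks of 300 or more, 6 overlapped a Ptf1a peak. No Ptf1a peak lay in the stretch in 34 of the 176 chains (19.3%). Of the 6 chains with the highest single Myc peaks, too few for a comparison, 4 had no Ptf1a peak in the stretch. These were chromosome 11 at 6423437 to 6429428 (scores 64.73, 79.26 and 460.7), chromosome 6 at 87788278 to 87801532 (77.56, 450.14 and 77.21), chromosome 7 at 71098576 to 71103334 (69.86, 428.36 and 63.39) and chromosome 2 at 29916911 to 29924101 (425.07, 126.21 and 86.69). In each, 1 tall Myc peak stood beside 2 lower ones, and the nearest Ptf1a peak was 16606, 29132, 24098 and 11794 bp from the chain. The remaining members of the 6 were on chromosome 7 at 17366351 to 17378003, where the peak of 509.41 had no Ptf1a peak but the last peak (102.4) did, and on chromosome 5 at 144943354 to 144951699, where the peak of 445.41 overlapped 2 Ptf1a peaks, the higher with a score of 2039.95.

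No chain without a shared peak held more than 4 Myc peaks, and 7 held 4. No Ptf1a peak was listed in the stretch in 4 of them. One lay on chromosome 15 at 76729860 to 76735127 (scores 56.81, 103.41, 58.87 and 89.77), another on chromosome 2 spanning 26764638 to 26772374 (103.67, 82.54, 58.66 and 52.33), another on chromosome 19 spanning 41903075 to 41923378 (83.72, 65.15, 78.61 and 52.42) and the last on chromosome 13 spanning 23608995 to 23634185 (59.31, 92.8, 53.86 and 50.71). The nearest Ptf1a peaks were 56602, 4657, 26208 and 20075 bp away. The chain on chromosome 13 was the longest of the 7, at 25.191 kb, and the lowest in summed Myc score. Ptf1a peaks stood between the Myc peaks in the others. On chromosome 15 at 78961679 to 78972191 (113.63, 94.08, 80.05 and 63.72) a Ptf1a peak began 2 bp beyond a Myc peak without overlapping it, so this chain is free of shared peaks by a narrow margin. On chromosome 17 at 34027405 to 34046586 (97.02, 91.1, 52.09 and 130.32) the single Ptf1a peak scored 50.24, near the lowest score of the list. On chromosome 9 at 107436782 to 107457272 (62.81, 60.77, 71.59 and 86.61) 2 Ptf1a peaks lay between, the nearer 4376 bp from a Myc peak.

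At the other end were the chains in which every Myc peak was shared. These included the chain of 8, 3 chains of 5 and 6 chains of 4. Among those of 4, the chain on chromosome 18 given above had the highest summed Myc score (778.8) and the next (627.11) was on chromosome 2 at 26080722 to 26098516. Its Myc peaks scored 268.8, 74.59, 198.21 and 85.51, with Ptf1a partners of 3100, 560.38, 177.62 and 258.56. The first site was the highest of the chain in both lists. It lies on the same chromosome as the chain at 26764638 to 26772374, under 1 Mb away, in which no peak was shared. The longest of the 6 was on chromosome 10 at 92713368 to 92738818, with a span of 25.451 kb. Its Myc peaks scored 142.99, 68.77, 63.54 and 62.17 and their Ptf1a partners 70.98, 187.07, 1993.96 and 102.75, so its highest Myc peak had its lowest partner. This chain and the one on chromosome 13 without a shared peak were added to the named chains after their values were seen.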

How the data were processed

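The authors deposited 1 peak list per library, with chromosome, start, end, name and score, on mm9. The tools named, per the submitters' processing notes, are MACS 1.4.1, BWA 0.5.9-r16, FastQC 0.9.4 and CASAVA 1.8. Roles, parameters, peak threshold and use of inputs were not given in the sources used here. The deposited score is the peak caller's value and was compared within a list. Fixation was for 20 min in 1% formaldehyde and fragments were of 300 to 500 bp, per the labels' protocols. The 2 input samples were not analysed here.

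Myc peaks were joined as stated above and overlapped with Ptf1a peaks by at least 1 bp, in Python 3.11.15 with numpy 2.4.6, pandas 2.3.3, scipy 1.17.1 and matplotlib 3.10.9. Joining and overlap were checked on simulated data. Coordinates count from 1. Chains named are the 12 with the most peaks, the 6 with the highest peaks, the 6 with the most peaks among those with every and with no peak shared (ties by summed score), the 3 with most and fewest Ptf1a peaks per kb among chains of 5 or more, and those with the shortest and longest span per gap. The members and lists were chosen with earlier results of these data known. Planned counts at gene starts and of motifs were not made: the gene and promoter tables at hand are on another build.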

Additional observations from a re-analysis of the deposited data

How the results depend on the processing

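Of 36 values under 9 alternatives, 23 stayed within 1.5 times the count or within the 95% interval of the value reported. Under all 9 the share of chain peaks on Ptf1a was above that of Myc peaks outside chains. The number of chain peaks, 593 as reported, was 253 with a joining gap of 5 kb, 1011 with 25 kb, 212 with at least 4 peaks in a chain and 316 with Myc peaks of a score of 60 or more. The score limit removes low peaks by construction and gave a median score of 88.99 and a median width of 892 bp. With at least 4 peaks in a chain, 59.9% of chain peaks were shared and 85.7% of chains had at least 1 shared peak. A chain of more peaks has more that could be shared. With Ptf1a peaks of a score of 100 or more, 38.1% of chain peaks were shared, against 27.7% of Myc peaks outside chains. At least 1 shared peak was then found in 67.6% of chains. With Myc peaks under 1 kb apart merged first, chosen after seeing the data, 366 merged peaks were left in chains. Of these, 56.8% were shared, against 41.4% outside chains, and 84.2% of chains had at least 1 shared peak. Without the chains of 5 or more, also chosen after seeing the data, 47.1% of chain peaks were shared. Counts at gene starts and of the CACGTG motif, and their alternatives, were not run, because mm9 genes and sequence were not used here. Samples could not be paired, because there was a single library of each factor. The depth is unknown, and 142 of the 593 chain peaks scored below 60, close to the lowest score, so which sites each list missed cannot be told.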

Other observations

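Chains were unevenly spread over the chromosomes. Chromosome 11 had 21 and chromosome 15 had 18, while chromosome 16 had 3. On chromosome 15, 63 of 277 Myc peaks (22.7%) lay in chains, against 10.9% over the autosomes and 5.00% on chromosome 16. The density was 1.801 chains per 10 Mb on chromosome 15, 1.77 on chromosome 11 and 1.39 on chromosome 19, measured between the first and the last Myc peak of each.

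Some chains followed each other closely. These examples were chosen after their values were seen. In 15 cases the next chain began within 100 kb. Both chains of the pair had a shared peak in 9 cases, neither in 2 and one of them in 4. Over all 176 chains, 135 (76.7%) had a shared peak, and some chains belong to 2 of the 15 cases. Whether neighbouring chains are more alike than other chains was not tested. The chain of 8 on chromosome 11 was followed after 14.157 kb by a chain of 3 at 57816858 to 57824227 with 2 shared peaks. Elsewhere on chromosome 11, chains of 4, 4 and 3 peaks followed one another at 93995337 to 94008135, 94022579 to 94037571 and 94071015 to 94088032, with 4, 3 and 1 shared peaks. On chromosome 4, chains at 141374828 to 141384945 and 141401983 to 141423406 held 3 peaks each, all of them shared. Chromosome 1 had the contrary case: 3 successive chains of 3 at 88254644 to 88260767, 88331706 to 88347247 and 88398980 to 88406713 held 9 Myc peaks, none of which overlapped a Ptf1a peak. The middle chain was not free of Ptf1a, however. A Ptf1a peak with a score of 125.02 lay between its Myc peaks, 596 bp from the nearest, and a Ptf1a chain of 3 reached into it.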
